A study of Homo sapiens with 3 samples.

Results

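The let-7 family and miR-98 were examined in small RNA libraries from 3 strains of HCCLM3, an established human line of hepatocellular carcinoma (HCC). The members were the rows of the deposited tables that bore 1 of 10 listed names, so 10 of 1921 mature miRNA names were taken. The names were hsa-let-7a-5p, hsa-let-7b-5p, hsa-let-7c, hsa-let-7d-5p, hsa-let-7d-3p, hsa-let-7e-5p, hsa-let-7f-5p, hsa-let-7g-5p, hsa-let-7i-5p and hsa-miR-98. All 10 were found in every table, and all passed the minimum level of 10 CPM (counts divided by the file sum and multiplied by 1e+06) in every comparison.

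The parent strain carried the label low metastasis. Subclone1 was labelled with a raised ability to metastasize to lung only, and subclone2 with a dual ability, to lung and to the celiac lymph nodes. All strains were grown in DMEM with no treatment named. In the study's text the starting line is a red fluorescent derivative of HCCLM3 with high metastatic potential, which differs from the label of the parent, and both mixed descendant populations and lines grown from single cells were raised from its lung and lymph node metastases in nude mice. Which of these subclone1 and subclone2 are is not said in the labels, so that each is 1 clone is not known here. Each strain had 1 library, so no difference given here has a replicate check and no p-value could be obtained. The file sums were 7902438 counts for the parent, 3570864 for subclone1 and 4568075 for subclone2, and all intervals are 95% intervals that cover counting error alone. Where 3 values are given in a row, they follow the order parent, subclone1, subclone2.

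The let-7 miRNAs are among the most conserved small RNAs of animals, and the human let-7a sequence is identical to the one first described in the worm. A mature let-7 strand guides the silencing complex to messenger RNAs that pair with its seed, which lies at bases 2 to 8, and members with a common seed can therefore share targets. Known targets include the RAS genes, HMGA2 and LIN28B, and the LIN28 proteins in turn block the maturation of let-7 precursors. The family is abundant in differentiated tissue, liver included, and is widely described as tumour suppressing.

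The mature sequences, taken from RefSeq (GRCh38.p14), are shown first because the seed defines the family and the remaining bases are all that separates its members in a read count. All 10 names had a match. Capitals mark the seed.
hsa-let-7a-5p: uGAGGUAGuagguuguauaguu
hsa-let-7b-5p: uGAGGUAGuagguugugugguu
hsa-let-7c: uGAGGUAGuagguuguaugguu
hsa-let-7d-5p: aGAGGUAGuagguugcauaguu
hsa-let-7e-5p: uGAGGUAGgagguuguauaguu
hsa-let-7f-5p: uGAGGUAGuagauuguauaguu
hsa-let-7g-5p: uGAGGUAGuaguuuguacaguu
hsa-let-7i-5p: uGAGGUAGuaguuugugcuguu
hsa-miR-98: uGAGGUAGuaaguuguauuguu
hsa-let-7d-3p: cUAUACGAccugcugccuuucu

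The first 9 sequences carry the seed GAGGUAG, whereas hsa-let-7d-3p, the opposite arm of the let-7d hairpin, has the seed UAUACGA. Each sequence is 22 bases long, and 14 positions are identical in the 9 members with the let-7 seed. The 8 variable positions are 1, 9, 11, 12, 16, 17, 18 and 19, counted from the 5′ end. Of the 36 pairs among these 9 members, 4 differ at a single base. Starting from let-7a-5p, these are G12A for let-7f-5p, U9G for let-7e-5p and A19G for let-7c. The fourth pair is let-7b-5p and let-7c, which differ by G17A with the base of let-7b-5p first. The largest distance, 6 positions, lies between let-7d-5p and let-7i-5p.

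**Figure D1:**
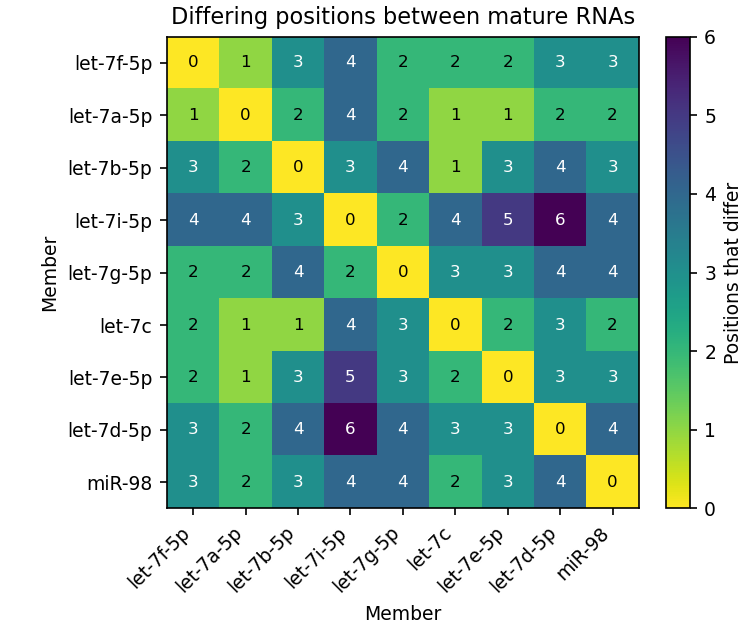
Number of positions at which the mature RNAs of each pair of the 9 members with the let-7 seed differ (color scale and cell number, 0 on the diagonal). let-7a-5p lies 1 position from let-7f-5p, let-7e-5p and let-7c, and the largest number, 6, is between let-7d-5p and let-7i-5p.

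The single-base pairs join let-7a-5p, let-7b-5p, let-7c, let-7e-5p and let-7f-5p into a chain of 5 names between which a sequencing or matching error of 1 base could move a read. How the counting treated such reads is not given in the sources used here, so the split among these 5 is uncertain. A move within the chain leaves their sum as it is. A read counted under several names, or left out, would change the sum as well, and this was not tested. Together these 5 names held 59.6% of all counts in the parent, while subclone1 had 61.2% and subclone2 62.8%. The remaining let-7d-5p, let-7g-5p, let-7i-5p and miR-98 each lie at least 2 positions from every other member.

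The members come from 12 hairpins (RefSeq positions on GRCh38.p14, host genes from GENCODE release 29). let-7a-5p is cut from 3 of them, let-7f-5p from 2 and every other member from 1, so the counts of let-7a-5p and let-7f-5p pool several genes. On chromosome 9, MIRLET7A1 (94175957 to 94176036), MIRLET7F1 (94176347 to 94176433) and MIRLET7D (94178834 to 94178920) follow one another on the plus strand in an intron of the long noncoding RNA AL158152.2. On chromosome 22, MIRLET7A3 (46112749 to 46112822) and MIRLET7B (46113686 to 46113768) lie 863 bases apart in exons of MIRLET7BHG. On chromosome X, MIR98 (53556223 to 53556341) and MIRLET7F2 (53557192 to 53557274) lie on the minus strand in an intron of HUWE1, a ubiquitin ligase gene.

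The remaining hairpins carry no second member. MIRLET7A2 is on chromosome 11 (122146522 to 122146593, minus strand, an intron of MIR100HG) and MIRLET7C on chromosome 21 (16539828 to 16539911, an intron of MIR99AHG). MIRLET7E is on chromosome 19 (51692786 to 51692864, an intron of SPACA6). MIRLET7G is on chromosome 3 (52268278 to 52268361, minus strand, an intron of WDR82), and MIRLET7I on chromosome 12 (62603686 to 62603769, an intron of the long noncoding RNA AC048341.1).

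The family took up about the same large part of each library. The 10 members held 5286428 counts in the parent, or 66.9% of all counts (interval 66.9 to 66.9). They held 2395369 counts in subclone1, or 67.1% (67.0 to 67.1), and 3158632 in subclone2, or 69.1% (69.1 to 69.2). The summed level in subclone1 was therefore 1.003 times that of the parent, and the level in subclone2 was 1.03 times that of the parent and 1.03 times that of subclone1. In such bulk RNA, fewer cells that express a miRNA and less of it per cell cannot be told apart. Among the 10 most abundant miRNAs of each library, the number of members was 6, 4 and 6.

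A sum that fills most of its own denominator has little room to move in CPM. From the parent, the summed CPM could at most have become 1.49 times as high. Set against the counts outside the family, there were 2.02 family counts per other count in the parent, against 2.04 in subclone1 and 2.24 in subclone2. On that scale the log2 ratio to the parent was 0.012 in subclone1 and 0.15 in subclone2. The scalings compared were the file sum, TMM (a trimmed mean of the ratios over many names), median-of-ratios factors, the counts outside the members, and the file sum without the 12 names among the 10 most abundant of any library, 6 of them members. The direction for subclone1 depended on the scaling, from -0.068 without the 10 most abundant names of any library to 0.012, whereas subclone2 stood above the parent and above subclone1 under all 5 scalings. Its log2 ratio ranged from 0.048 to 0.22 against the parent and from 0.044 to 0.28 against subclone1.

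**Figure D2:**
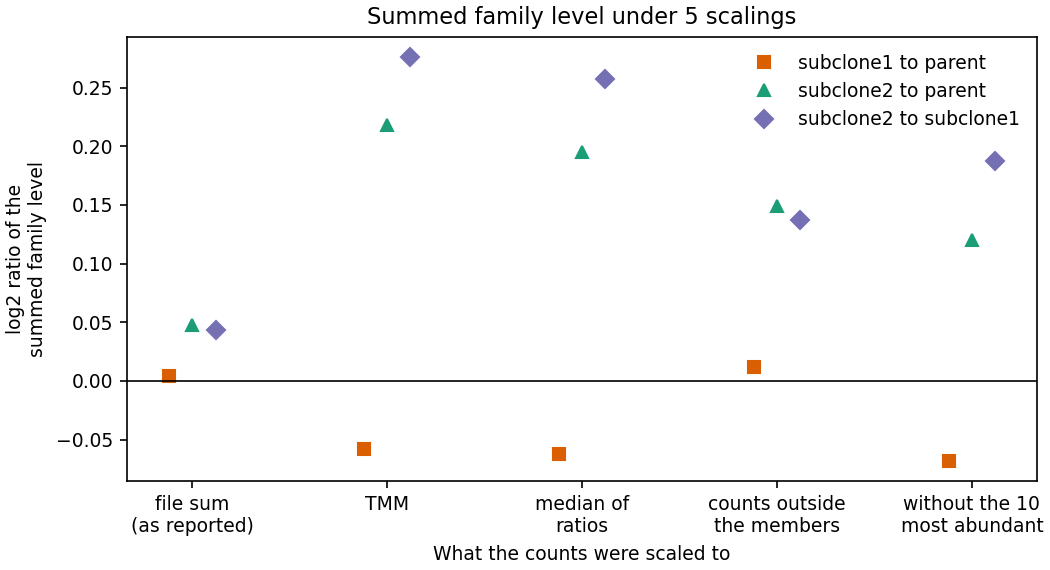
log2 ratio of the summed level of the 10 members (y axis) for the 3 comparisons, with the counts scaled in 5 ways (x axis), 1 point for each comparison. subclone2 to parent and subclone2 to subclone1 stay above 0 in all 5, and subclone1 to parent changes sign, between -0.068 and 0.012.

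hsa-let-7f-5p, made from the chromosome 9 and the chromosome X hairpins, was the most abundant miRNA in each, with 288886 CPM in the parent, while subclone1 had 273457 and subclone2 278487. hsa-let-7a-5p ranked second everywhere, with 215023, 225075 and 230781 CPM. Both lay far above the rest, and the 2 together made up 75.3%, 74.3% and 73.7% of the family counts.

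hsa-let-7b-5p had 59975, 80216 and 83620 CPM, so that the parent lay apart from both subclones, and was the third member by level in each library. hsa-let-7i-5p followed with 38363, 33314 and 34493 CPM. The fourth place of let-7i-5p was thus the same in each library, although its level was highest in the parent.

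hsa-let-7g-5p had 25765 CPM in the parent, against 17370 in subclone1 and 21088 in subclone2, and hsa-let-7c had 19208, 19559 and 21628 CPM. Here the order turned. let-7g-5p stood above let-7c in the parent, with 1.34 counts for each count of let-7c (interval 1.33 to 1.35), but below it in both subclones, where let-7c had 1.13 (1.11 to 1.14) and 1.03 (1.02 to 1.03) counts for each count of let-7g-5p.

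hsa-let-7e-5p was seventh in each library, with 12523, 13384 and 12995 CPM, and hsa-let-7d-5p was eighth, with 8574, 7835 and 7778 CPM. hsa-miR-98 came more than 10-fold below them, with 598 CPM in the parent, while subclone1 had 551 and subclone2 548. hsa-let-7d-3p was the least abundant member at 47.3, 48.2 and 40.7 CPM, on 374, 172 and 186 counts. Every pair of neighbours in the order differed beyond counting error within its library. The spread between libraries of 1 strain is unknown. Adapter ligation does not take every RNA end equally well, so these ranks describe reads and not molecules.

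**Figure D3:**
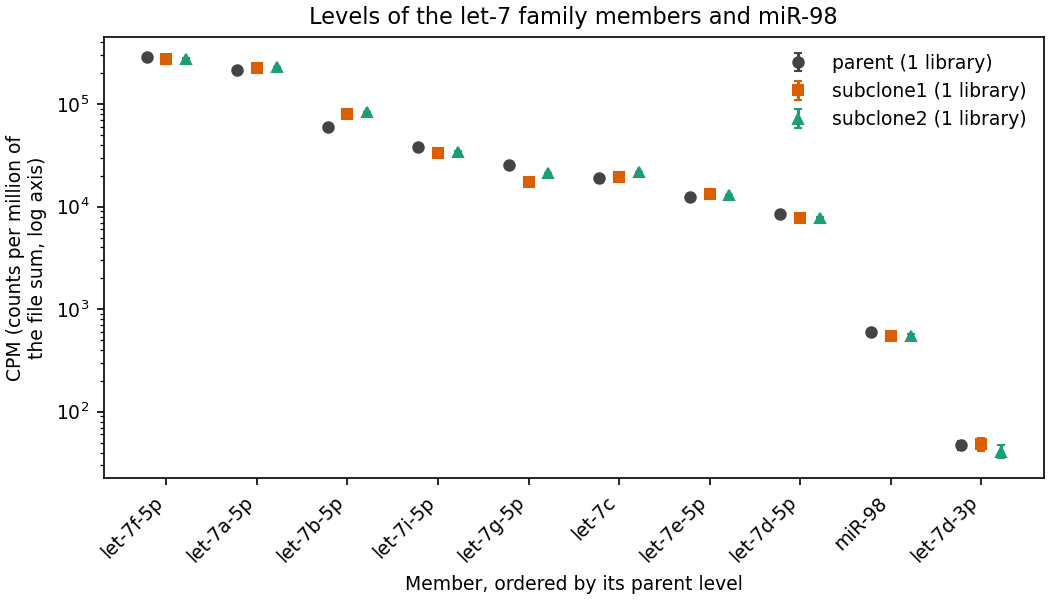
CPM of each member (log axis) in the parent, subclone1 and subclone2, ordered by the parent level, with exact 95% intervals for counting error that are mostly smaller than the points. let-7f-5p and let-7a-5p lie at the top in every library, from 215023 CPM upwards, while miR-98 is at 548 to 598 CPM and let-7d-3p at 40.7 to 48.2 CPM.

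The subclones were then set against the parent, and against one another, member by member. A miRNA was called when its ratio of CPM was at least 2-fold and its interval excluded 1, and a second rule with 1.2-fold was read beside it, since the members moved little. By the 2-fold rule 0 of the 10 members were called in any comparison. Over all kept miRNAs this rule called 13.0% of 192 in subclone1 against the parent, 10.7% of 187 in subclone2 against the parent and 5.76% of 191 in subclone2 against subclone1.

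By the 1.2-fold rule, 1 member was higher and 1 lower in subclone1 than in the parent. The rule called 29.7% of all kept miRNAs higher and 24.5% lower in that comparison. In subclone2 against the parent 1 member was again higher and 1 lower, compared with 17.6% and 37.4% of all kept miRNAs. In subclone2 against subclone1, 1 member was higher and 0 were lower, compared with 7.85% and 33.5%. Under TMM the split into higher and lower changed. In subclone1 against the parent 1 member was then higher and 2 were lower, beside 25.5% and 28.6% of all. In subclone2 against the parent 3 were higher and 0 lower, beside 23.0% and 21.9%, and in subclone2 against subclone1 5 were higher and 0 lower, beside 25.1% and 17.8%. At the file-sum scaling the members' median log2 ratio was -0.027, -0.090 and 0.031 in the same order of comparisons, against 0.017, -0.15 and -0.17 for all kept miRNAs. Under TMM the members' median was -0.088, 0.081 and 0.26, against -0.045, 0.017 and 0.067, so its sign for subclone2 against the parent depended on the scaling.

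**Figure D4:**
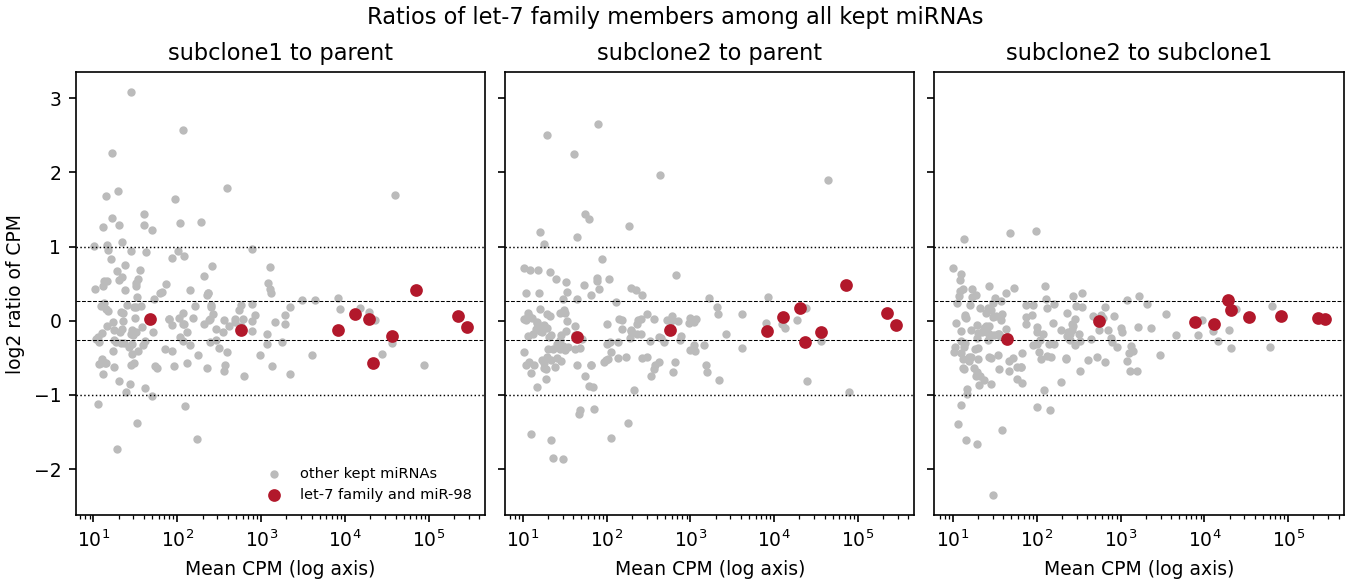
log2 ratio of CPM (y axis) against mean CPM (log axis) for every kept miRNA in the 3 comparisons, with the 10 members in red, dotted lines at 2-fold and dashed lines at 1.2-fold. No member lies beyond 2-fold, and let-7g-5p in subclone1 against the parent, at -0.57, is the farthest from 0.

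hsa-let-7b-5p was the member called higher in both subclones. Its log2 ratio to the parent was 0.42 in subclone1 (interval 0.41 to 0.43) and 0.48 in subclone2 (0.47 to 0.49), or 1.34-fold and 1.39-fold. The subclones lay close together, with a ratio of 1.04 (1.04 to 1.05). Both calls were made under each of the 4 other scalings too, with log2 ratios from 0.35 to 0.43 in subclone1 and from 0.55 to 0.65 in subclone2. let-7b-5p differs from let-7c at 1 base and from let-7a-5p at 2, so that reads of the more abundant let-7a-5p or of let-7c may have been counted with it. Per 100 counts of let-7a-5p there were 27.9, 35.6 and 36.2 of let-7b-5p.

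hsa-let-7g-5p was the member called lower in both subclones. Its level in subclone1 was 0.674 times that of the parent (log2 -0.57, interval -0.58 to -0.56) and in subclone2 0.818 times (log2 -0.29, interval -0.30 to -0.28). It was also the member called between the subclones, 1.21-fold higher in subclone2 (log2 0.28, interval 0.27 to 0.29). The call in subclone1 was made under all 5 scalings, with log2 ratios from -0.64 to -0.56. The call in subclone2 was not, since the log2 ratio there was between -0.22 and -0.12 under the 4 others, short of the 1.2-fold threshold of 0.26. The lead of subclone2 over subclone1 widened to between 0.37 and 0.51 under these. let-7g-5p, encoded by a single hairpin, has no neighbour at 1 base but lies 2 bases from let-7a-5p, let-7f-5p and let-7i-5p, and whether reads of these were counted with it was not tested.

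The ratio of these members within a library does not depend on the scaling. The pair was chosen after the values were seen, as the highest and the lowest ratio to the parent, so a large change in it follows from the choice. There were 2.33 counts of let-7b-5p for each count of let-7g-5p in the parent, against 4.62 in subclone1 and 3.97 in subclone2. The change from the parent was 1.98-fold in subclone1 and 1.70-fold in subclone2. Between the subclones the ratio differed by a factor of 0.859.

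The remaining 8 members stayed within 1.2-fold of the parent in both subclones at the file-sum scaling. hsa-let-7i-5p, which shares with let-7g-5p the differences G12U and U18C from let-7a-5p, had log2 ratios of -0.20 and -0.15. Its ratio in subclone1 passed 1.2-fold under TMM (-0.27), median-of-ratios scaling (-0.27) and the scaling without the most abundant names (-0.28), and its ratio in subclone2 was 0.017 under TMM. hsa-let-7c, at 0.17 in subclone2, passed 1.2-fold there under TMM (0.34), median-of-ratios scaling (0.32) and scaling to the counts outside the members (0.27). hsa-let-7a-5p had 0.066 and 0.10, the latter passing 1.2-fold under TMM only (0.27), and hsa-let-7f-5p had -0.079 and -0.053. The direction of let-7f-5p in subclone2 turned under each of the 4 other scalings, and that of let-7a-5p in subclone1 under 2 of them.

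The pair of leading members shifted against each other by a small but countable amount. let-7f-5p had 1.34 counts for each count of let-7a-5p in the parent, while subclone1 had 1.21 and subclone2 1.21. As they lie 1 base apart, a different division of reads between them would have the same appearance, and this was not tested.

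hsa-let-7d-5p had log2 ratios of -0.13 and -0.14, and hsa-miR-98 of -0.12 and -0.13. In subclone2 both directions turned under TMM, to 0.030 for let-7d-5p and 0.045 for miR-98, and under median-of-ratios scaling, to 0.0067 and 0.021. These members come from different chromosomes, and both sit beside a let-7f hairpin. A near constant ratio between them follows from their similar log2 ratios. This ratio was 14.3 counts of let-7d-5p per count of miR-98 in the parent and 14.2 in each subclone. Its log2 change from the parent was -0.012 (interval -0.091 to 0.066) in subclone1 and -0.014 (-0.087 to 0.058) in subclone2. For let-7f-5p per let-7d-5p, its neighbour on chromosome 9, the ratio was 33.7, 34.9 and 35.8. For let-7f-5p per miR-98, its neighbour on chromosome X, the ratio was 483, 496 and 508. The log2 change of the latter from the parent was 0.039 (interval -0.037 to 0.11) in subclone1 and 0.073 (0.0034 to 0.14) in subclone2.

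hsa-let-7c had log2 ratios of 0.026 and 0.17, of which the former turned negative under 3 of the other scalings, and hsa-let-7e-5p of 0.096 and 0.053. Between the subclones let-7c was 0.15 higher in subclone2 and let-7e-5p stood at -0.043 on the log2 scale, and the sign of the latter turned under each of the 4 other scalings. hsa-let-7d-3p had 0.028 (interval -0.24 to 0.29) and -0.22 (-0.48 to 0.041), both with intervals that span 0.

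Each member was next expressed as a share of the family counts, so that the make-up of the family could be compared without any scaling. let-7b-5p gained most. It made up 8.97%, 12.0% and 12.1% of the family, a gain over the parent of 2.99 and 3.13 percentage points. let-7f-5p had the largest fall in percentage points, from 43.2% to 40.8% and 40.3%. Shares are parts of a whole, so a gain by any member lowers the share of others whatever their levels. let-7a-5p went from 32.1% to 33.6% and 33.4%.

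Among the less abundant members, let-7g-5p had the largest factor. It stood at 3.85%, 2.59% and 3.05% of the family, and let-7i-5p had 5.73%, 4.97% and 4.99%. The share of let-7d-5p was 1.28%, 1.17% and 1.12%, and that of miR-98 was 0.0894%, 0.0822% and 0.0793%. let-7c held 2.87%, 2.92% and 3.13%. let-7e-5p held 1.87%, 1.995% and 1.88%, so that in subclone2 it could not be told from the parent (log2 0.0056, interval -0.0091 to 0.020). let-7d-3p held 0.00707%, 0.00718% and 0.00589%, with a log2 ratio of its share to the parent of 0.021 (-0.25 to 0.29) in subclone1 and -0.26 (-0.53 to -0.0072) in subclone2, where the interval just left out 0. Both subclones are set against the same parent library, so their values are not independent of each other.

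**Figure D5:**
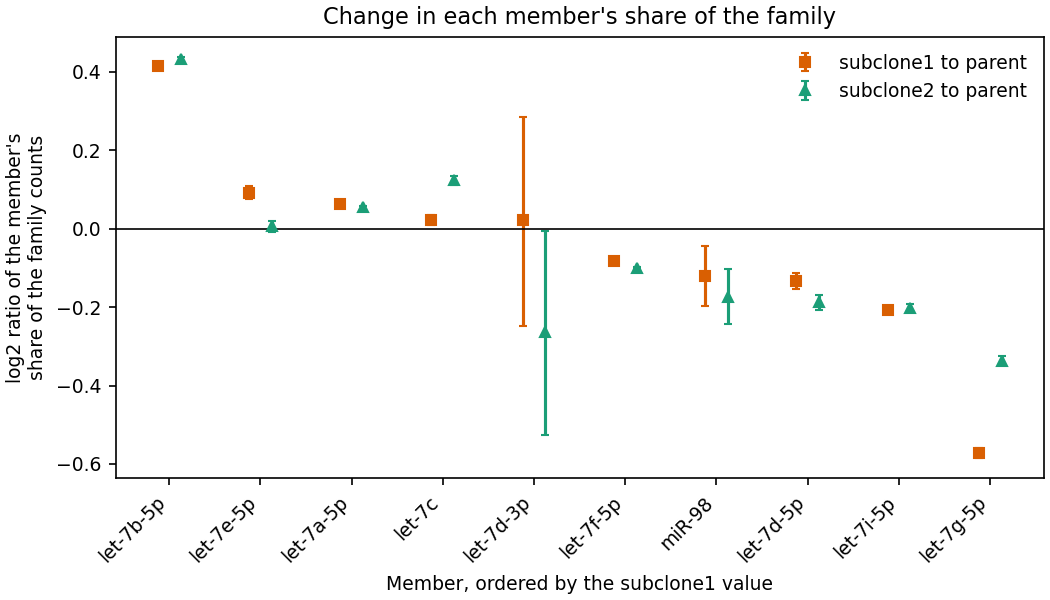
log2 ratio of each member's share of the family counts in subclone1 and subclone2 to that in the parent, ordered by the subclone1 value, with exact 95% intervals for counting error. let-7b-5p is highest (0.42 and 0.43) and let-7g-5p lowest (-0.57 and -0.34), and the intervals of let-7d-3p are wide, spanning 0 in subclone1 (-0.25 to 0.29) but not in subclone2 (-0.53 to -0.0072).

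The sequences were set beside these shares, a comparison chosen after the values were seen and therefore a description only. Of the 9 members with the let-7 seed, 5 have the same bases as let-7a-5p at positions 11 and 12, and 4 do not, namely let-7f-5p (G12A), let-7g-5p and let-7i-5p (G12U) and miR-98 (G11A). All 4 of the latter had a lower share than the parent in both subclones. Of the former, let-7a-5p, let-7b-5p, let-7c and let-7e-5p had a higher share in both, with let-7e-5p in subclone2 inside its counting interval, and let-7d-5p, which differs at positions 1 and 16, a lower one. let-7b-5p has the most G and C bases, 10 of 22, and let-7f-5p and miR-98 the fewest, 7. The members with 9, let-7c, let-7d-5p, let-7e-5p and let-7i-5p, had shares on both sides of the parent.

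Precursor use was described from the opposite arms. The hairpins of the members that moved most and of let-7d, the hairpin with both arms among the members, are shown with both mature arms in capitals (RefSeq, GRCh38.p14).
MIRLET7B (chr22:46113686-46113768, plus strand): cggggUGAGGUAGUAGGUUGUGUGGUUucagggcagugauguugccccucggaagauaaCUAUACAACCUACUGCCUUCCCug
MIRLET7G (chr3:52268278-52268361, minus strand): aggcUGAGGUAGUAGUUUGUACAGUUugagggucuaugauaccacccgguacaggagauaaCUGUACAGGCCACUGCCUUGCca
MIRLET7D (chr9:94178834-94178920, plus strand): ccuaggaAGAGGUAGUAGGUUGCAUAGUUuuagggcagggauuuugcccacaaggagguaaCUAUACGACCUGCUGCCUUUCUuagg

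In each of these hairpins the 5p arm is the guide strand that is loaded into the silencing complex, and the 3p arm is mostly degraded. Of the counts of both let-7d arms, hsa-let-7d-3p made up 0.549% (interval 0.495 to 0.607) in the parent. The subclones had 0.611% (0.523 to 0.709) and 0.521% (0.449 to 0.601), and all of these intervals overlap. There were 181, 163 and 191 counts of the 5p arm for each count of the 3p arm. The log2 change of the 3p to 5p ratio from the parent was 0.16 (-0.11 to 0.42) in subclone1 and -0.075 (-0.34 to 0.18) in subclone2, so no change in arm use was detectable at this depth.

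A further 8 opposite arms of let-7 hairpins were listed, and none reached 10 CPM. They held 118 counts in the parent, against 57 in subclone1 and 53 in subclone2 in all. let-7d-3p alone therefore accounted for 76.0%, 75.1% and 77.8% of all 3p counts, although its guide arm was among the rarer ones. hsa-let-7b-3p had 18, 8 and 9 counts beside 473946, 286440 and 381980 of its guide arm. hsa-let-7g-3p had 0 counts in each library, where 3 counts would be 0.380, 0.840 and 0.657 CPM, the limit that a count of 0 allows. hsa-let-7a-3p, which 2 of the let-7a hairpins share, had 58, 14 and 24 counts. Per count of let-7a-5p its log2 change from the parent was -0.93 (-1.93 to -0.11) in subclone1 and -0.57 (-1.34 to 0.12) in subclone2. As plain CPM, the log2 ratio of hsa-let-7a-3p to the parent was -0.87 (-1.86 to -0.044) in subclone1 and -0.46 (-1.23 to 0.23) in subclone2. hsa-let-7e-3p, on only 8, 11 and 9 counts, had CPM ratios in the other direction. Its log2 ratios to the parent were 1.58 (0.16 to 3.12) in subclone1 and 0.95 (-0.59 to 2.54) in subclone2. For hsa-let-7i-3p, on 28, 20 and 8 counts, they were 0.67 (-0.24 to 1.54) and -0.95 (-2.36 to 0.15).

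Other miRNAs with the same seed added next to nothing. Of the listed names with a RefSeq sequence, only hsa-miR-4458 and hsa-miR-4500 carry GAGGUAG outside the members. hsa-miR-4458 had 2, 0 and 0 counts, and hsa-miR-4500 had 0 in every library.

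3 of the let-7 hairpins share their clusters with members of the miR-99, miR-100 and miR-125 families. MIR99B (chromosome 19, 51692612 to 51692681) and MIR125A (51693254 to 51693339) lie 104 and 389 bases from MIRLET7E. The guide let-7e-5p and its neighbours did not keep a constant ratio. There were 16.2 counts of let-7e-5p per count of hsa-miR-99b-5p in the parent, while subclone1 had 29.1 and subclone2 27.1, and miR-99b-5p had log2 ratios of -0.75 and -0.69 to the parent. For hsa-miR-125a-5p the ratio was 35.1, 48.5 and 51.1. The opposite arm of MIR99B, hsa-miR-99b-3p, had log2 ratios to the parent of 0.19 (-0.14 to 0.51) in subclone1 and -0.31 (-0.66 to 0.016) in subclone2. let-7e-5p lies 1 base from the more abundant let-7a-5p, and whether reads of let-7a-5p were counted with it was not tested.

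MIR99A (chromosome 21, 16539089 to 16539169) lies 658 bases from MIRLET7C. let-7c had 70.7, 88.0 and 90.3 counts per count of hsa-miR-99a-5p, which had 272, 222 and 239 CPM. let-7c also lies 1 base from let-7a-5p, so the same limit holds for its ratio. MIR100 (chromosome 11, 122152229 to 122152308, minus strand) lies 5635 bases from MIRLET7A2, and hsa-miR-100-5p had 451, 299 and 387 CPM. hsa-miR-125b-5p, made from 2 places in these clusters, had 138, 124 and 141 CPM. Among the 11 listed names of this kind, 7 reached 10 CPM in some library, the others with at least 10 CPM being hsa-miR-99b-3p (29.7, 33.9 and 23.9 CPM) and hsa-miR-125b-2-3p (20.2, 21.8 and 14.01 CPM).

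The miRNAs with the pattern most like the family were sought among 80 other names with a mean of at least 100 CPM, by the distance between their pairs of log2 ratios to the parent. This rests on 3 libraries. Nearest to the summed family were hsa-miR-31-5p (597, 608 and 624 CPM, distance 0.028), hsa-miR-28-3p (distance 0.054) and hsa-miR-151a-3p (0.092). Nearest to let-7g-5p were hsa-miR-25-5p (1633, 1069 and 1303 CPM, distance 0.056), hsa-miR-100-5p (0.071) and hsa-miR-182-5p (0.12).

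The labelled cell type was checked by its best known miRNA. hsa-miR-122-5p, which dominates normal hepatocytes, had only 53, 19 and 18 counts (6.71, 5.32 and 3.94 CPM). The epithelial hsa-miR-200c-3p had 26.6, 37.8 and 38.1 CPM, hsa-miR-141-3p 2.28, 1.12 and 3.28 CPM, and hsa-miR-192-5p 18528, 60246 and 69068 CPM. Markers of blood cells summed to 2, 5 and 6 counts over 3 names. Of these hsa-miR-223-3p had 0.253, 1.12 and 1.09 CPM, hsa-miR-451a 0, 0.280 and 0.219 CPM, and hsa-miR-142-3p was at 0. Markers of muscle summed to 7.59, 23.2 and 7.88 CPM over 3 names, so that subclone1 stood above the others. The difference lay in hsa-miR-1, with 6.71, 21.6 and 7.01 CPM on 53, 77 and 32 counts. hsa-miR-206 had 6, 5 and 3 counts and hsa-miR-133a 1 count in each library. The part of these differences in the let-7 ratios was not tested.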

How the data were processed

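Small RNA libraries had been made by the authors from 1 ug of total RNA per strain with the Illumina TruSeq small RNA kit. The deposited tables give an unscaled read count for each of 1921 mature miRNA names. The submitters' processing notes name hg19 and CASAVA 1.4. The aligner, the miRBase release, the mismatch limit and the treatment of reads with several matches are not given in the sources used here. Each of them could move reads between members or change their summed counts.

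The members and lists were chosen with earlier results of these data known. Counts were scaled to CPM by the file sum. A comparison kept names whose CPM averaged 10 or more across its 2 libraries. log2 ratios used 0.5 added counts. Intervals were Clopper-Pearson for shares and conditional binomial for ratios between libraries. Changes of a 3p to 5p ratio had the conditional binomial interval of the 3p counts, with the 5p counts taken as fixed. Other changes of a ratio of 2 names had a normal approximation on 4 counts. All were at 95%. With 1 library per group no test was run, and the calls are a fixed rule of size. The code was tested on simulated data. Alternatives were TMM and median-of-ratios factors (edgeR 4.0.16 in R 4.3.3), scaling to the counts outside the members or without the 10 most abundant names of any library, 5 added counts, a minimum of 100 CPM or none, and folds of 1.2 and 1.5. All 10 members were named by rule. From related lists, names reaching 10 CPM in a library were named, and names below that are given where a count is discussed. The 3 nearest patterns were given for the sum and for the member with the largest ratio to the parent. Python 3.11.15 and scipy 1.17.1 were used. Positions and sequences are of GRCh38 and were joined by name only.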

Additional observations from a re-analysis of the deposited data

How the results depend on the processing

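No paired analysis was possible because each strain has 1 library, and no library could be left out for the same reason. The number of members past 2-fold was 0 in each comparison under every scaling, with 5 added counts, with a minimum of 100 CPM, with no minimum and with a fold of 1.5. A fold of 1.2 gave 2, 2 and 1 at the file-sum scaling, and these numbers changed with the scaling. The summed family ratio moved by more than its counting interval with each other scaling. For subclone1 to the parent the log2 ratio of 0.0040 became -0.058 with TMM, -0.062 with median-of-ratios factors, 0.012 with the counts outside the members and -0.068 without the 10 most abundant names. For subclone2 to the parent 0.048 became 0.22, 0.19, 0.15 and 0.12 in the same order. For subclone2 to subclone1 0.044 became 0.28, 0.26, 0.14 and 0.19. TMM moved the median of all kept miRNAs by -0.062, 0.17 and 0.23 in these comparisons. Of the 30 member ratios, 30 stayed within their interval with 5 added counts, and 26 moved beyond it with TMM. Leaving out let-7d-3p kept all 27 shares within their intervals. Joining the 5 members linked by single bases kept 12 and moved 15, those of the joined members, whose summed share was 89.0%, 91.2% and 90.8%. This split was fixed by construction, since each joined member took the summed share and the others kept their own. The let-7d arm ratios stayed within their intervals with 5 added counts. Depth limits let-7d-3p and the other 3p arms most, and the cause of the differences between scalings was not tested.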
